A study of Mus musculus with 8 samples.

Results

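The fibroblast growth factor (FGF) genes examined here were 5 ligands (Fgf2, Fgf7, Fgf10, Fgf18 and Fgf21), 3 signalling receptors (Fgfr1, Fgfr2 and Fgfr3), the receptor-like protein Fgfrl1 and the feedback inhibitor Spry2. They were read on arrays in the mouse osteoblast line MC3T3-E1, grown together with tumour cells. Members were taken by gene name from the array files, with every probe of each name, which gave 10 genes of 27962 gene names and 20 probes of 41174. The genes were chosen by their log2 ratios of Cy3 over Cy5 in the groups of these same arrays, so the differences between groups are a description, and the adjusted p-values printed with them say only where a probe stands among all probes of the fit.

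The co-culture partner was either a vector control tumour line or the same kind of cell overexpressing Jagged1, a ligand of Notch receptors. Each co-culture received DMSO, the solvent control, or MRK-003, which blocks gamma-secretase, the enzyme complex that cuts bound Notch receptors so that their intracellular domain can reach the nucleus. The groups were therefore vector with DMSO, Jagged1 with DMSO, vector with MRK-003 and Jagged1 with MRK-003, with 2 biological replicates each and 8 arrays in all. The osteoblast samples were labelled with Cy3 and hybridised against Universal Mouse Reference RNA in Cy5. The sources used here do not name the tumour line or its species, or say how osteoblasts were parted from it. They do not say that replicates were separate cultures either, so p-values measure only the spread between these samples, which may be technical. All groups share the one osteoblast line.

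FGFs are secreted or circulating proteins that bind receptor tyrosine kinases together with heparan sulfate or Klotho co-receptors. Bound receptors pass the signal through Frs2, Grb2 and Ras to the kinase ERK, and Sprouty and Dusp proteins dampen it. In bone, Fgf2 and Fgf18 act on osteoblasts and their precursors, Fgfr1, Fgfr2 and Fgfr3 are each mutated in inherited skeletal disorders, and Fgf7 is best known as keratinocyte growth factor, made by mesenchymal cells and read by the epithelial splice form of Fgfr2.

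The probes are 60-base oligonucleotides. The following are shown because the results turn on them: the only Fgf7 probe, the Fgfr2 probe that lies apart from the others of that gene, the 2 Fgfr1 probes that overlap and so are not independent readings, and the Fgf2 and Fgf21 probes that span an intron. They are written 5′ to 3′ in lower case, and capitals mark the base at which the overlapping Fgfr1 probes differ.
Fgf7 A_51_P465331: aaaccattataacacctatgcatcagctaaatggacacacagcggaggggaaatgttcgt
Fgfr2 A_52_P158800: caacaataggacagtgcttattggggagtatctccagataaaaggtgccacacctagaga
Fgfr1 A_51_P109469: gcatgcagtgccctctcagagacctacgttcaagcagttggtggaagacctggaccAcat
Fgfr1 A_52_P668810: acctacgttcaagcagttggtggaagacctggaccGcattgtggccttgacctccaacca
Fgf2 A_51_P399845: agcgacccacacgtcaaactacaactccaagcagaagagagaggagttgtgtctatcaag
Fgf21 A_51_P315925: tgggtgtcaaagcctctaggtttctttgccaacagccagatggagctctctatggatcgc

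On the mm7 build that the array files use, the Fgf7 probe lies at chr2:125830264-125830323 on the plus strand. The Fgfr2 probe A_52_P158800 lies at chr7:126407714-126407773 on the minus strand. Its start is 128693 bases from that of Fgfr2 probe A_51_P432403 (chr7:126279021-126279080), which is itself 743 bases from the start of A_52_P363110 (chr7:126278278-126278337). The Fgfr1 pair at chr8:24330044-24330103 and chr8:24330065-24330124 shares 39 positions with 1 mismatch, A36G, counted from the first shared base. The Fgf2 probe spans 47220 bases of chromosome 3 and the Fgf21 probe 615 bases of chromosome 7, more than their own length, so each joins parts of the transcript that an intron separates. Exon and UTR annotation of that build was not used here.

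The 250 bases before the RefSeq start are shown for Fgf7 and Fgfr2, the 2 members with a probe that passed with MRK-003 beside Jagged1 cells (GRCm38.p6, a different build from that of the probes). The Fgf7 window is chr2:126034408-126034657 on the plus strand, and the Fgfr2 window is chr7:130266809-130267058 on the minus strand. The RefSeq span behind that window is chr7:130162451-130266808. On mm7 the outermost Fgfr2 probes start 129436 bases apart, which is more than that span. The Fgfr2 window may therefore not lie before the start of the transcripts that all its probes read.
Fgf7 promoter: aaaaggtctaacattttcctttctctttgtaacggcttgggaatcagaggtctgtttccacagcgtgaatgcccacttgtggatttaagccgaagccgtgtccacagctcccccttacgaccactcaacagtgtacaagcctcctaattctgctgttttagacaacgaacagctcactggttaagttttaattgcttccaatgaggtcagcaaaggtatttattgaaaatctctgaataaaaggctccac
Fgfr2 promoter: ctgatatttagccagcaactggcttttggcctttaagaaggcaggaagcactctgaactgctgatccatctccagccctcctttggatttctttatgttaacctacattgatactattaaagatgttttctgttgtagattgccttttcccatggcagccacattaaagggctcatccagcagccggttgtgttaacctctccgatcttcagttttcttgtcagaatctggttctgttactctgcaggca
Both strands were searched for GTGGGAA, the core bound by the Notch partner RBPJ, and for CACGTG and CACGCG, letters bound by Hes and Hey repressors. None of the 3 motifs was found in either window. Of 32851 promoter windows of the same length, 5.42% held GTGGGAA, 6.02% CACGTG and 7.62% CACGCG. Among the other members in the table, the Fgfrl1 window held 1 CACGTG and the Fgf21 window 1 CACGTG and 1 CACGCG. These matches describe letters only.

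Each value below is log2 of Cy3 over Cy5 after normalization, so 0 means a sample equal to the reference RNA, and values of different probes are not set against each other. Replicate 1 of every group was hybridised on one slide and replicate 2 of every group on the other. On slide 1, Cy3 was well above background on 86.0% to 89.4% of spots other than controls, and on slide 2 on 71.4% to 78.6%. Median Cy3 signals of these spots, before background was removed, were 165 to 204 and 76.5 to 117. Array position on the slide followed the group on both slides, so position and group cannot be told apart. Labels were checked with Hey1, a Notch target, which was 3.29 and 3.05 with Jagged1 in DMSO, against -0.61 and -0.56 with vector in DMSO and -2.68 to -2.11 on the 4 MRK-003 arrays. The Jag1 probe A_52_P634090 was 1.26 ± 0.12 (SE) higher with Jagged1 than with vector in DMSO (limma adjusted p = 0.0229). The other Jag1 probe, A_51_P280906, was 0.71 ± 0.35 (SE) higher and did not pass (adjusted p = 0.743, and 0.0347 with the slide as a block). Under MRK-003 these probes were 0.12 and 0.18 higher with Jagged1 than with vector and Hey1 0.31 higher, none passing (adjusted p = 1 for each), so the check bears on the Jagged1 and vector labels of the DMSO arrays only. Beside Jagged1 cells, Jag1 A_52_P634090 changed by -1.28 with MRK-003 (limma adjusted p = 0.0107), to a mean of 2.04, beside 2.05 with vector in DMSO. Whether this probe reads the overexpressed Jagged1 was not tested. Of 12 osteoblast markers, 11 were well above background on every array.

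Of the 20 member probes, 18 from 9 genes entered the fit, which covered 33060 probes whose Cy3 signal stood well above background on each array of some group. The Fgf10 probe and 1 of the 2 Fgf2 probes did not pass, each being well above background on 4 arrays, all of slide 1.

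Fgf7 was the member with the widest spread of group means, and its low value was the Jagged1 co-culture in DMSO. Its log2 ratio was 2.98 and 3.12 with vector in DMSO, 1.66 and 1.81 with Jagged1 in DMSO, 2.93 and 3.39 with vector in MRK-003, and 3.08 and 3.48 with Jagged1 in MRK-003. Both arrays of Jagged1 in DMSO lay below all other 6, and the other 3 groups overlapped. The raw Cy3 net signal of this probe was 8492 and 6407 with vector in DMSO and 3097 and 2243 with Jagged1 in DMSO. With MRK-003 it was 9129 and 8120 beside vector cells and 8577 and 9774 beside Jagged1 cells, so the sample dye itself carried the low group. The reference dye differed by -0.10 between Jagged1 and vector in DMSO and the sample dye by -1.41, both on the log2 scale.

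In DMSO, Fgf7 was 1.31 ± 0.19 (SE) lower on the log2 scale with Jagged1 than with vector, which is 2.48-fold, with -1.31 on slide 1 and -1.30 on slide 2. Over all probes this difference had a limma adjusted p of 0.0993, and of 0.0037 with the slide as a block. With Jagged1 cells, Fgf7 rose by 1.55 ± 0.19 (SE) with MRK-003, 2.92-fold (adjusted p = 0.0196), by 1.42 on slide 1 and 1.67 on slide 2. That call was lost when any 1 of the 4 arrays compared was left out (adjusted p 0.0562 to 0.188, difference 1.35 to 1.74) and in Cy3 alone (adjusted p = 0.109). With vector cells the MRK-003 difference was 0.11 (95% interval -0.35 to 0.58), and between Jagged1 and vector under MRK-003 it was 0.12 (95% interval -0.34 to 0.59). In bulk RNA such as this, fewer cells that make a transcript and less transcript per cell cannot be told apart.

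**Figure D1:**
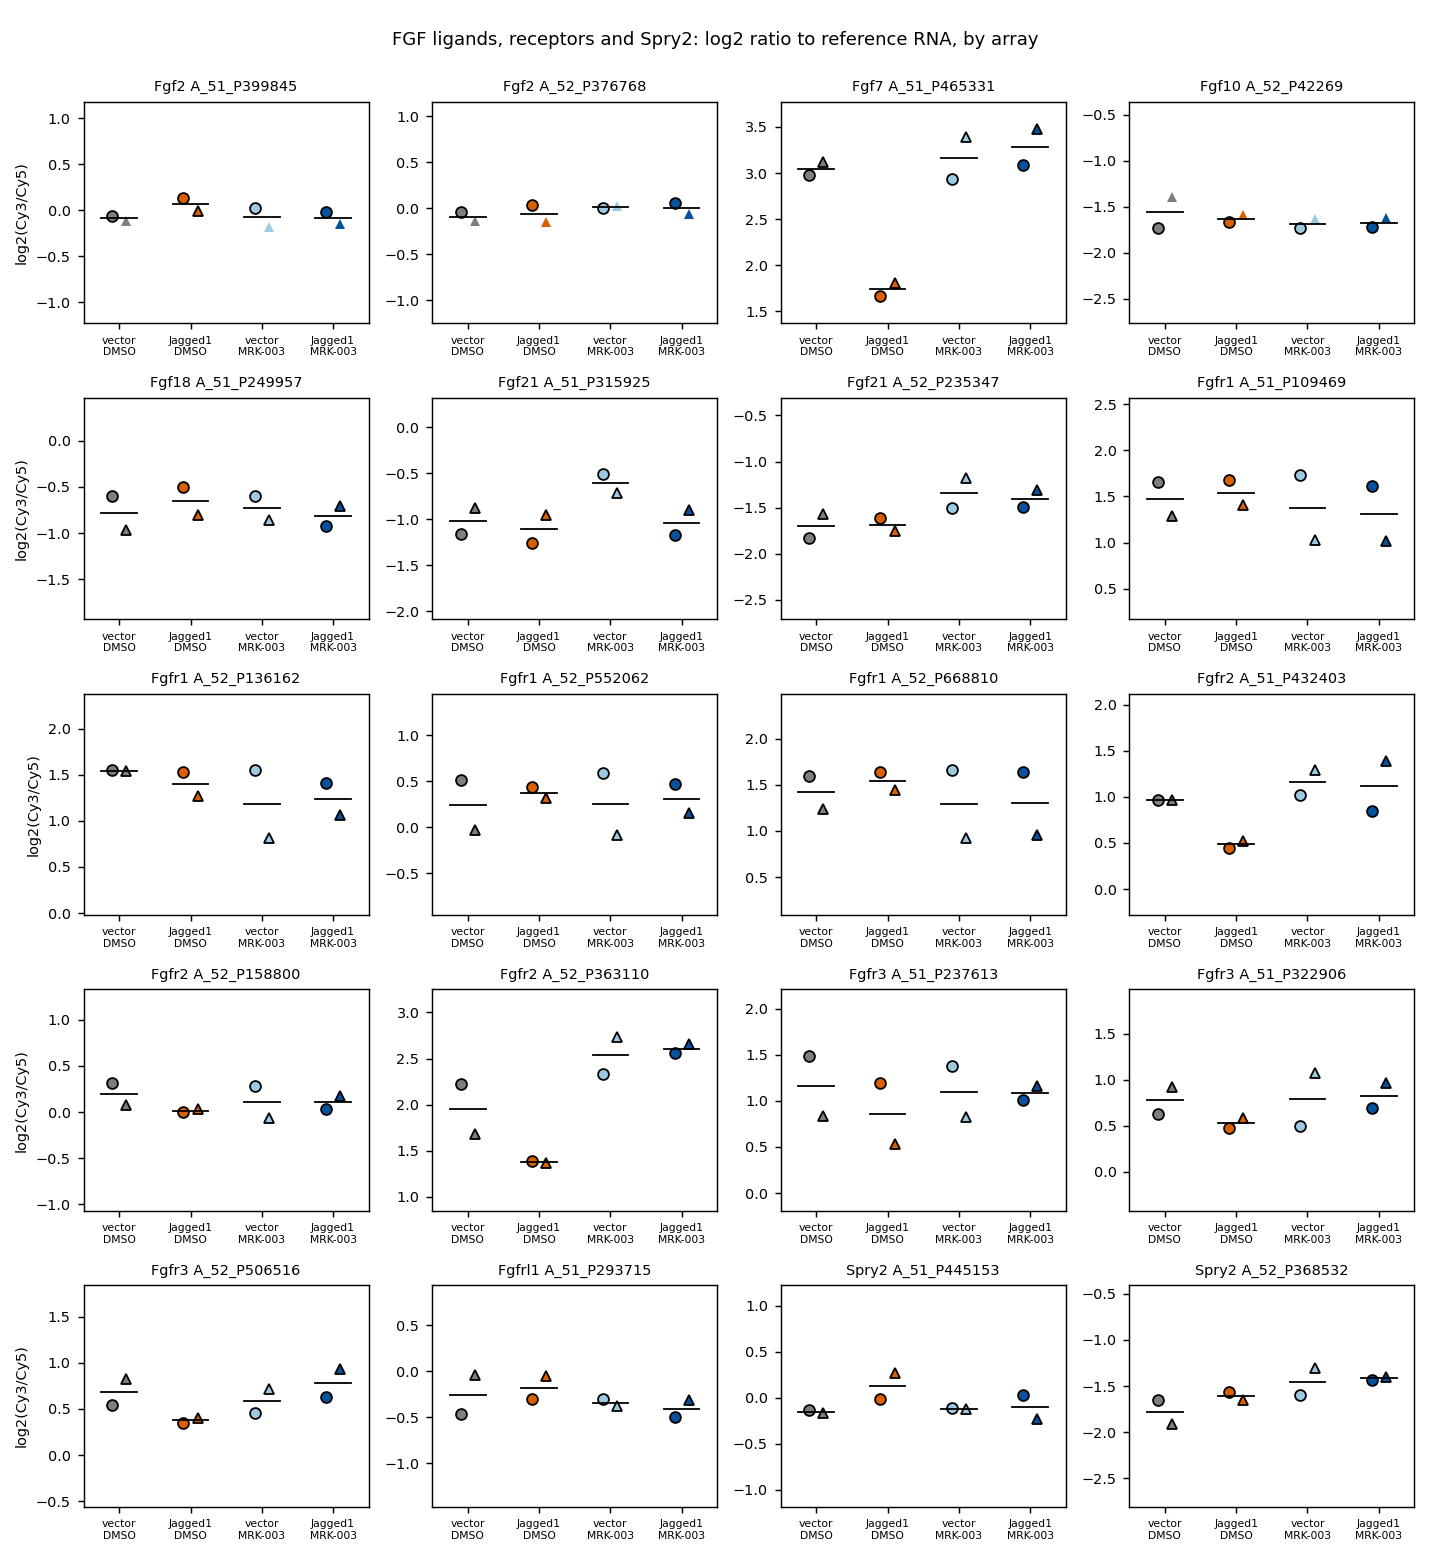
Log2(Cy3/Cy5) of each member probe on the 8 arrays, by group; circles are slide 1, triangles slide 2, bars the mean of 2 arrays, and points without an outline were not well above background in Cy3. Every panel spans the same number of log2 units. Fgf7 with Jagged1 in DMSO sits at 1.66 and 1.81, below its other 6 arrays.

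None of the other ligands passed in any comparison. Fgf2, a ligand that binds several FGF receptors and is stored in bone matrix, gave -0.06 and -0.11 with vector in DMSO and 0.13 and 0.00 with Jagged1 in DMSO on probe A_51_P399845. With MRK-003 that probe gave 0.02 and -0.18 beside vector cells and -0.02 and -0.15 beside Jagged1 cells. The DMSO groups did not overlap, but the difference of 0.15 had a 95% interval of -0.12 to 0.43, and Cy3 net signals were only 8.60 to 36.0 units, with 5 of 8 arrays well above background. Jagged1 in DMSO, the highest group of that probe, was the only group with both arrays well above background. The probe entered the fit only through that group, so its lack of overlap there gives no support for a difference. Fgf10, a mesenchymal ligand of the epithelial form of Fgfr2, was well above background on the 4 arrays of slide 1 alone, where it lay between -1.73 and -1.67 in all groups.

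Fgf18, which acts on chondrocytes and osteoblasts through Fgfr3 and other receptors, overlapped between the groups in every comparison. It was -0.60 and -0.97 with vector in DMSO, -0.50 and -0.81 with Jagged1 in DMSO, -0.60 and -0.86 with vector in MRK-003 and -0.92 and -0.71 with Jagged1 in MRK-003. The Jagged1 difference in DMSO was 0.13 (95% interval -0.30 to 0.56). Fgf21, a circulating ligand that needs beta-Klotho, was read by 2 probes. Beside vector cells both were higher with MRK-003, by 0.41 on A_51_P315925 and 0.35 on A_52_P235347, and neither passed. Beside Jagged1 cells the MRK-003 differences were 0.07 and 0.28. Probe A_51_P315925 was -0.51 and -0.72 with vector in MRK-003, above the range of -1.26 to -0.88 on the other 6 arrays, and the excess over vector in DMSO was 0.66 on slide 1 and 0.16 on slide 2. Its Cy3 net signal was 157 on the slide 1 array of that group and 28.9 to 43.9 on the other 7 arrays. Probe A_52_P235347 was -1.83 and -1.56 with vector and -1.62 and -1.75 with Jagged1 in DMSO, and -1.50 and -1.18 with vector and -1.49 and -1.31 with Jagged1 in MRK-003. On that probe both MRK-003 groups lay above their DMSO groups, by 0.35 with vector and 0.28 with Jagged1, and neither difference passed (adjusted p = 1 and 0.530). The sign with Jagged1 turned when local background was not limited.

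Fgfr2, the receptor whose splice forms read Fgf7 and Fgf10 in epithelium and Fgf2 and Fgf18 in mesenchyme, had both arrays of Jagged1 in DMSO as the lowest of the 8 on 2 of its 3 probes, as Fgf7 did. Probe A_52_P363110 was 2.22 and 1.68 with vector in DMSO, 1.38 and 1.36 with Jagged1 in DMSO, 2.34 and 2.73 with vector in MRK-003 and 2.56 and 2.65 with Jagged1 in MRK-003. The vector group in DMSO lay between Jagged1 in DMSO and the MRK-003 arrays. Probe A_51_P432403 was 0.96 and 0.97, 0.45 and 0.53, 1.02 and 1.29, and 0.85 and 1.39 in the same order of groups, with Jagged1 in DMSO lowest once more. Probe A_52_P158800, the one at the far end of the gene, was 0.32 and 0.08, 0.00 and 0.03, 0.28 and -0.06, and 0.04 and 0.17, and its Cy3 net signals were 16.9 to 60.5.

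Beside Jagged1 cells, Fgfr2 rose with MRK-003 by 1.24 ± 0.20 (SE) on probe A_52_P363110, 2.35-fold (limma adjusted p = 0.0435; slides 1.18 and 1.29). On A_51_P432403 the difference was 0.64 ± 0.19 (SE), with an adjusted p of 0.204, and of 0.034 with the slide as a block. The dim A_52_P158800 gave 0.09 (95% interval -0.26 to 0.45). Leaving out 1 array ended the call of A_52_P363110 for each of the 4 arrays compared and for each vector array in MRK-003 (adjusted p 0.0501 to 0.266, difference 1.19 to 1.28). In DMSO the 3 probes were 0.58, 0.48 and 0.18 lower with Jagged1 on the log2 scale, -0.84 and -0.32, -0.52 and -0.44, and -0.32 and -0.05 by slide, and none passed (adjusted p = 0.564, 0.648 and 0.837). Beside vector cells, A_52_P363110 was 0.58 higher with MRK-003, by 0.11 on slide 1 and 1.05 on slide 2. There A_51_P432403 gave 0.20 and A_52_P158800 gave -0.09, and none of the 3 probes passed.

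**Figure D2:**
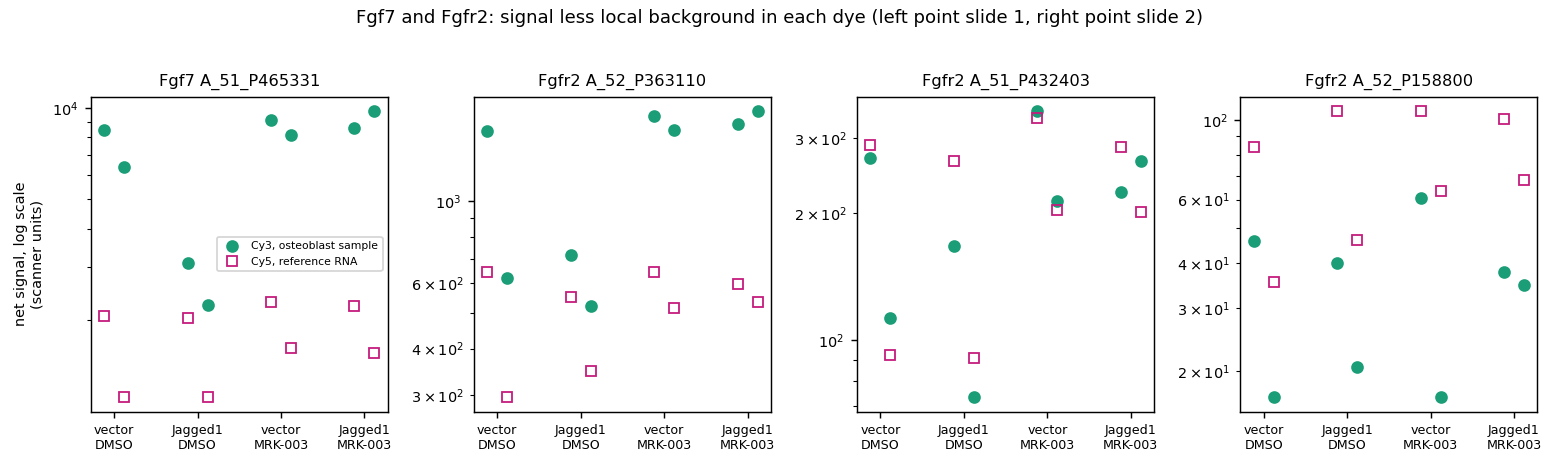
Net signal (signal less local background, log scale, scanner units) of the Fgf7 and Fgfr2 probes in Cy3, the osteoblast sample, and Cy5, the reference RNA; the left point of each pair is slide 1. Fgf7 Cy3 is 3097 and 2243 with Jagged1 in DMSO and 6407 to 9774 on the other 6 arrays.

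Fgfr3, which restrains the growth of cartilage and is also made by osteoblasts, had differences of the same sign on all 3 probes for Jagged1 against vector in DMSO and for MRK-003 beside Jagged1 cells. The signs were mixed in the other pair of comparisons. Probe A_52_P506516 was 0.54 and 0.82 with vector in DMSO, 0.35 and 0.40 with Jagged1 in DMSO, 0.46 and 0.72 with vector in MRK-003 and 0.62 and 0.93 with Jagged1 in MRK-003. Its 2 lowest arrays were those of Jagged1 in DMSO. The difference between MRK-003 and DMSO beside Jagged1 cells was 0.40 ± 0.16 (SE) with an adjusted p of 0.350, and of 0.0494 with the slide as a block. Probe A_51_P322906, which shares 37 positions with it at 1 mismatch, gave 0.29, and A_51_P237613 gave 0.23, of opposite sign on the slides (-0.18 and 0.63). A_51_P237613 was dim, with net signals of 35.1 to 111 in Cy3 and 9.24 to 59.1 in Cy5. Its Cy5 signal was well above background on 7 of the 8 arrays. Jagged1 against vector in DMSO was -0.30, -0.24 and -0.30 on A_52_P506516, A_51_P322906 and A_51_P237613, with adjusted p values of 0.767, 0.844 and 0.869. The sign of A_51_P237613 turned when the first vector array or the second Jagged1 array in DMSO was left out.

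Fgfr1, the main FGF receptor of mesenchymal cells, had 4 probes, and on 3 of them the groups overlapped in every comparison. Probe A_51_P109469 was 1.66 and 1.28 with vector in DMSO, 1.67 and 1.41 with Jagged1 in DMSO, 1.73 and 1.03 with vector in MRK-003 and 1.61 and 1.01 with Jagged1 in MRK-003. Its slide 1 arrays lay above its slide 2 arrays in every group. The overlapping probe A_52_P668810 gave the same picture, with 1.60 to 1.66 on slide 1 and 0.92 to 1.44 on slide 2. Across the 4 probes the Jagged1 difference in DMSO ran from -0.14 to 0.13. The widest 95% interval, on A_52_P668810, was -0.61 to 0.86, and the SE of that difference was 0.31, or 0.14 with the slide as a block.

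Fgfrl1, a receptor-like protein without a kinase domain, was -0.47 and -0.04 with vector in DMSO, -0.30 and -0.05 with Jagged1 in DMSO, -0.30 and -0.38 with vector in MRK-003 and -0.50 and -0.32 with Jagged1 in MRK-003. The DMSO groups overlapped, and the Jagged1 difference there was 0.08 (95% interval -0.33 to 0.48). Spry2, an inhibitor that ERK signalling itself turns on, was read by 2 probes that differed in their order of groups. On A_51_P445153 it was -0.13 and -0.16 with vector in DMSO, -0.01 and 0.27 with Jagged1 in DMSO, -0.11 and -0.12 with vector in MRK-003 and 0.03 and -0.23 with Jagged1 in MRK-003. On A_52_P368532 it was -1.66 and -1.91, -1.56 and -1.66, -1.60 and -1.31, and -1.44 and -1.40 in that order. In DMSO the Jagged1 difference was 0.28 (95% interval -0.05 to 0.61) and 0.17 (95% interval -0.16 to 0.51). With MRK-003 beside Jagged1 cells the probes had opposite signs, -0.23 and 0.19, and neither passed (adjusted p = 0.561 and 0.645).

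**Figure D3:**
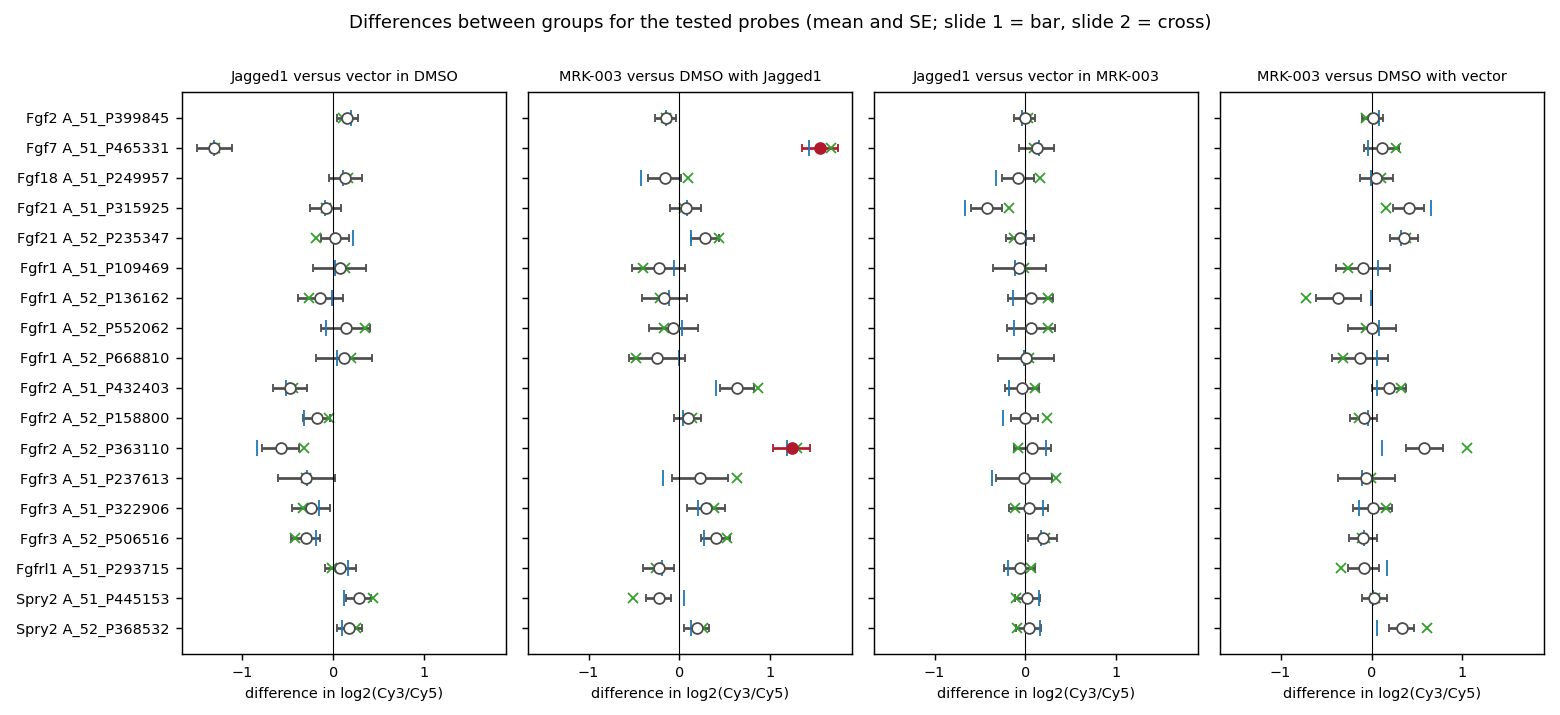
Differences in log2(Cy3/Cy5) between group means for the 18 tested probes, with the SE of the limma fit without the slide as a block; blue bars are slide 1, green crosses slide 2, and filled points passed an adjusted p of 0.05 over all probes. Fgf7 is at -1.31 in the first panel and 1.55 in the second, and the 2 filled points are Fgf7 and Fgfr2 A_52_P363110.

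Counted over the 18 probes, Jagged1 against vector in DMSO had 0 calls in limma, where 0.148% of all probes passed, and 1 call (Fgf7) with the slide as a block, where 3.06% did. At an unadjusted p under 0.05, 7.3% of all probes passed. The groups did not overlap on 9 of the 18, beside 41.5% of all probes, with 7 lower with Jagged1 (22.9% of all probes) and 2 higher (18.6%). With MRK-003 beside Jagged1 cells there were 2 calls, both higher, beside 1.65% of all probes in either direction and 0.783% higher, and 4 with the slide as a block, beside 8.78%. Groups did not overlap there on 10 of the 18, beside 44.6% of all probes, with 8 higher (23.9%) and 2 lower (20.7%). Beside vector cells MRK-003 gave 0 calls of 18 and 0 of 33060 in limma (3.74% at an unadjusted p under 0.05), with 6 probes not overlapping, all higher, beside 25.5% of all probes and 12.7% higher. With the slide as a block that was 0 of 18, beside 0.00302%. Under MRK-003, Jagged1 against vector gave 0 calls of 18 and 0 of 33060 (0.233% at an unadjusted p under 0.05), with 1 probe (Fgf21 A_51_P315925) not overlapping and lower, beside 16.2% of all probes and 7.7% lower. The first 2 of these comparisons share the Jagged1 arrays in DMSO, and all were known when the members were picked, so nothing is read from the counts. They include Fgf2 A_51_P399845, which entered the fit only through Jagged1 in DMSO. That probe is among the 2 higher with Jagged1 in DMSO and the 2 lower with MRK-003 beside Jagged1 cells.

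The median difference over the 18 probes was -0.04 for Jagged1 against vector in DMSO, beside -0.01 over all probes, and 0.08 for MRK-003 beside Jagged1 cells, against 0.01. The difference between the Jagged1 effect in DMSO and that under MRK-003 was -1.43 ± 0.27 (SE) for Fgf7. It did not pass in limma (adjusted p = 0.615, with 0.00302% of all probes called and 3.81% at an unadjusted p under 0.05), and it passed with the slide as a block (adjusted p = 0.0313, with 0.275% called). For Fgfr2 that difference was -0.65, -0.44 and -0.18 on A_52_P363110, A_51_P432403 and A_52_P158800, and none passed with or without the block.

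Around these members, 80 other genes of the pathway could be tested, from 6 lists drawn up by function. With MRK-003 beside Jagged1 cells, 2 rose and 6 fell in limma, and 14 passed with the slide as a block, on 1 probe per gene, the brightest. Of all probes, 1.65% passed in limma and 8.78% with the block. In the other comparisons 0 of the 80 passed in limma. With the slide as a block 6 passed for Jagged1 against vector in DMSO, where 3.06% of all probes did.

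None of the 13 tested ligands outside the member list passed in any comparison, and their median difference for Jagged1 in DMSO was 0.04. Fgf13, an intracellular family member that does not act through FGF receptors, was 0.22 (95% interval -0.0011 to 0.44) higher with Jagged1 in DMSO on probe A_51_P409220, and 0.05 and 0.03 on its other tested probes. Fgf15, an endocrine ligand made by the intestine, was 0.24 (95% interval -0.25 to 0.73) higher.

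Among 14 other receptors, co-receptors and FGF-binding proteins, Flrt3 fell with MRK-003 beside Jagged1 cells. Flrt3, a membrane protein that binds FGF receptors and promotes their signalling, was 2.66 and 2.19 with vector in DMSO, 4.09 and 3.53 with Jagged1 in DMSO, 1.53 and 2.12 with vector in MRK-003 and 1.97 and 2.21 with Jagged1 in MRK-003. Both arrays of Jagged1 in DMSO were the highest of the 8. The fall with MRK-003 beside Jagged1 cells was -1.72 ± 0.28 (SE) on A_52_P476935 (limma adjusted p = 0.0419) and -1.70 on A_51_P142295 (adjusted p = 0.0427). In DMSO, Flrt3 was 1.39 higher with Jagged1 (adjusted p = 0.191, and 0.0438 with the slide as a block). Sdc1, a heparan sulfate proteoglycan named after its values were seen, was -1.73 with MRK-003 beside Jagged1 cells (adjusted p = 0.0673, and 0.00267 with the slide as a block).

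Of 12 genes of heparan sulfate synthesis and editing, Hs6st2 rose and Sulf1 fell. Hs6st2, which adds sulfate to the 6-O position of heparan sulfate, was 1.74 and 1.87 with vector in DMSO, 0.88 and 1.03 with Jagged1 in DMSO, 1.73 and 2.10 with vector in MRK-003 and 1.90 and 2.06 with Jagged1 in MRK-003. Jagged1 in DMSO was the lowest group without overlap. Beside Jagged1 cells it rose with MRK-003 by 1.03 ± 0.15 (SE) (limma adjusted p = 0.0297), and by 0.94 on its other probe (adjusted p = 0.0229). Sulf1, which removes 6-O sulfate outside the cell, was 0.36 and 0.45, 0.76 and 0.80, -0.25 and -0.07, and -0.03 and 0.03 in the same order of groups. The fall beside Jagged1 cells was -0.78 ± 0.10 (SE) (adjusted p = 0.0232), and beside vector cells the difference was -0.56 (adjusted p = 0.930).

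Of 18 intracellular adaptors and kinases, Gab1, a docking protein downstream of Frs2 and Grb2, fell by 1.05 ± 0.16 (SE) on the log2 scale with MRK-003 beside Jagged1 cells (limma adjusted p = 0.0359), and the other 17 did not pass. Beside vector cells the Gab1 difference was -0.49 and did not pass. Of 10 feedback inhibitors other than Spry2, Dusp4, a phosphatase of ERK and JNK kinases, was -1.99 and -1.83 with vector in DMSO, -0.77 and -1.07 with Jagged1 in DMSO, -2.57 and -2.57 with vector in MRK-003 and -2.41 and -2.59 with Jagged1 in MRK-003. Jagged1 in DMSO was the highest group. The fall with MRK-003 beside Jagged1 cells was -1.58 ± 0.14 (SE) (adjusted p = 0.00844), 2.99-fold. In DMSO Dusp4 was 0.99 higher with Jagged1 (adjusted p = 0.0825, and 0.0118 with the slide as a block).

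Of 13 transcription targets of FGF and ERK signalling, 1 rose and 2 fell with MRK-003 beside Jagged1 cells. Ccnd1, which drives entry into S phase, rose by 0.76 ± 0.12 (SE) (limma adjusted p = 0.0424). Its difference beside vector cells was 0.27 and did not pass. Junb, a subunit of the AP-1 factor, fell by 1.00 ± 0.16 (SE) on A_51_P159201 (adjusted p = 0.04), and its other probe gave -0.87 (adjusted p = 0.0679, and 0.0196 with the slide as a block). Beside vector cells these Junb probes differed by -0.87 and -0.68 with MRK-003, and neither passed. In DMSO they were 0.19 and 0.21 higher with Jagged1 than with vector, with overlapping groups. Phlda1, a pleckstrin homology protein, fell by 1.73 ± 0.29 (SE) (adjusted p = 0.0445). Its difference beside vector cells was -0.77 and did not pass. These targets respond to many other signals, and the list's median difference was -0.03, beside 0.01 over all probes. All 8 called genes of the 6 lists kept their sign when any 1 array was left out, but between 0 and 6 of them still passed, 0 without the first array of Jagged1 in DMSO or the second of Jagged1 in MRK-003. It was 1 without the second array of Jagged1 in DMSO or the first of Jagged1 in MRK-003, 2 without either vector array in DMSO and 6 without either vector array in MRK-003.

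**Figure D4:**
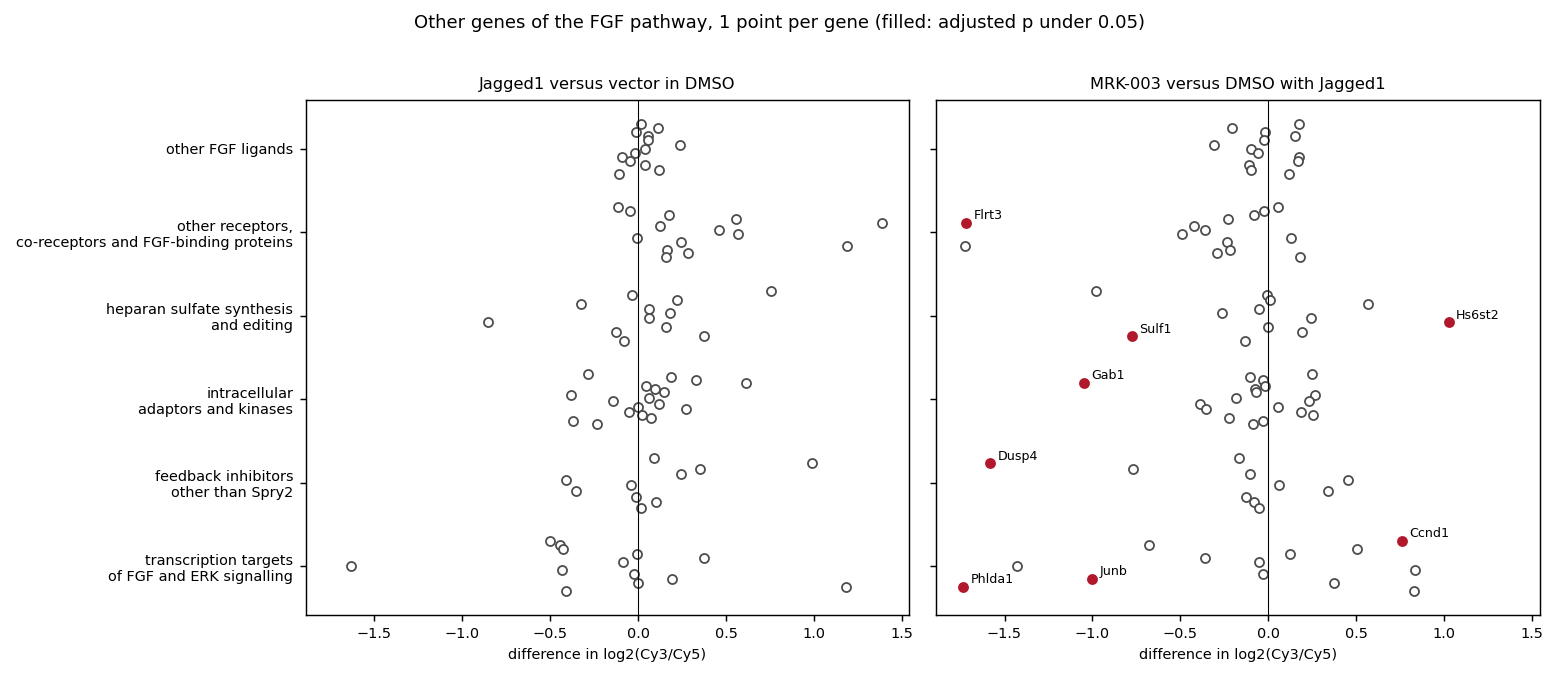
Differences in log2(Cy3/Cy5) for the 80 tested genes of the 6 pathway lists, 1 point per gene, for Jagged1 against vector in DMSO (left) and MRK-003 against DMSO beside Jagged1 cells (right). The 8 filled points passed an adjusted p of 0.05 and all lie in the right panel, from Phlda1 at -1.73 to Hs6st2 at 1.03.

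The probes most like Fgf7 over the 8 arrays, by Pearson correlation of log2 ratios, were those of Hs6st2 (0.996), Mcm4 (0.996), Cpe (0.996), Sh3kbp1 (0.995) and Ptprg (0.995). In all, 326 probes had a correlation above 0.95, and the arrays share slides and the reference RNA, so these values only describe. Ptprg, a receptor tyrosine phosphatase, was 1.10 lower on the log2 scale with Jagged1 in DMSO and 1.39 higher with MRK-003 beside Jagged1 cells. Mcm4, a subunit of the replicative helicase, differed by -0.69 and 0.79 in those comparisons. Among the member probes, the correlation with Fgf7 was 0.93 for Fgfr2 A_51_P432403, 0.87 for Fgfr2 A_52_P363110 and 0.83 for Fgfr3 A_52_P506516. The most negative were -0.74 for Spry2 A_51_P445153 and -0.54 for Fgfr1 A_52_P668810, but the other Spry2 probe, A_52_P368532, gave 0.29. Within a slide, over 4 arrays, Fgfr2 A_52_P363110 gave 0.98 and 0.84, and Spry2 A_51_P445153 gave -0.28 and -0.98.

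Markers of other cells were read on the same arrays. In DMSO, 46.7% of all probes were higher with Jagged1 than with vector. All 9 tested epithelial markers were, by a median of 0.18, and none passed. Their mean log2 ratio was -2.46 and -2.38 with Jagged1 in DMSO and -2.64 and -2.61 with vector in DMSO. With MRK-003 beside Jagged1 cells all 9 were lower, by a median of -0.17, with means of -2.62 and -2.54, and none passed. Of all probes, 52.2% were higher in that comparison. Of the 12 on the list, 9 were well above background on every array, among them Krt8, Krt18 and Epcam, while Cdh1 was on 2 arrays, Cldn4 on 4 and Esrp1 on 0. Of the 12 osteoblast markers, 4 (Spp1, Col1a1, Col1a2 and Sparc) were saturated in Cy3 on some array and Col1a2 on all 8, which compresses their ratios. Over all 12 the median difference was -0.16 for Jagged1 against vector in DMSO and 0.16 for MRK-003 beside Jagged1 cells. Over the 8 that were never saturated, a split made after seeing the data, it was -0.46, with 7 of 8 lower, and 0.38, with 7 of 8 higher. None of the 12 passed in limma, and with the slide as a block 1 passed in the first comparison and 3 in the second. Of all probes, 0.148% and 1.65% passed in limma in those comparisons, and 3.06% and 8.78% with the block. For Jagged1 against vector in DMSO and for MRK-003 beside Jagged1 cells, the medians were 0.03 and -0.02 for macrophage markers. They were 0.09 and 0.04 for chondrocyte, 0.06 and -0.02 for adipocyte, and -0.05 and 0.00 for endothelial markers. In the second comparison the 8 tested chondrocyte markers ran from -0.85 to 1.15. None of those 8 passed in limma on the brightest probe, 1 did on another probe, and 3 passed with the slide as a block (8.78% of all probes). The part of these marker lists in the values of Fgf7 and Fgfr2 was not tested.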

How the data were processed

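The deposited scanner files, one per array, hold Agilent Feature Extraction output (version 9.5.3.1, build mm7, per the file headers). Mean and local background intensity per spot were used as deposited. Spot flags, deposited as 0 or 1 marks, were used as given. The authors' deposited value table holds log2 ratios, which matched log2 of the deposited processed Cy3 over Cy5 intensity up to 1 constant per array. The authors' deposited log10 ratio column was not used for any result.

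From the intensities, normexp (offset 50) removed the background, the local background of a spot being limited to the array median plus 3 MAD, since some spots held extreme values. Ratios were normalized by loess in each array with control spots at weight 0. Outlier spots were left out and spots of a probe averaged; 303 probes with a missing value and 7811 dim probes were left out. Group means over all 8 arrays were fitted in limma 3.58.1 (R 4.3.3), with 5 comparisons and Benjamini-Hochberg adjustment over 33060 probes. The fit was tested on simulated data.

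The slide in the file headers pairs same-numbered replicates, and deviations of same-numbered arrays correlated at 0.36 to 0.85 over all 6 pairs of groups. The fit with the slide as a block is therefore given where it changes a call of a member, and for only some of the other genes named.

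Members and gene lists were chosen with earlier results of these data known. Named genes were all members; from each list, genes that passed in any comparison (at most 4) or, with none, the 2 of smallest p for Jagged1 against vector in DMSO; Jag1 and Hey1; and the 5 most like the member of widest range. Sdc1 was named outside this rule, after its values were seen. Of the probes, 22951 took current names through RefSeq accessions and 18223 kept the file's name. With 2 arrays a group, their number limits the precision.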

Additional observations from a re-analysis of the deposited data

Results flagged for a closer look

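For Fgf7, the Jagged1 effect in DMSO minus that under MRK-003 was -1.43 on the log2 scale, with an adjusted p of 0.615 in the fit of group means and 0.0313 with the slide as a block. The comparison was picked out because that second test of the difference passed. Groups of 2 arrays were too small to look for a single array standing apart.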

How the results depend on the processing

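Without the limit on local background, Jagged1 against vector in DMSO had 3 called probes (49 as reported), MRK-003 against DMSO with Jagged1 61 (547 as reported) and the interaction 0 (1 as reported). At some spots the unlimited local background reached 32904 units beside array medians of 27 to 30.5. The authors' value table gave 14, 249 and 0 for these results, and Cy3 alone gave 207 for the second. For the interaction, 1 background per array gave 0, an offset of 10 gave 3, median centring 2, Cy3 alone 3 and 1 probe per gene 2. With the replicate (slide) as a block, the counts were 1010 for Jagged1 in DMSO, 2903 for MRK-003 with Jagged1, 1 for MRK-003 with vector and 91 for the interaction. With the block and no limit on background they were 76 for Jagged1 in DMSO and 0 for the interaction. The cause of these moves was not tested. Leaving out 1 array gave 0 to 15 probes for Jagged1 in DMSO, 10 to 384 for MRK-003 with Jagged1 and 0 to 1 for the interaction, with fewer samples in each fit. The called probes were 37 higher and 12 lower for Jagged1 in DMSO, 36 and 22 with median centring, and 367 and 643 with the replicate block, where lower calls outnumbered higher ones. For MRK-003 with Jagged1 they were 259 higher and 288 lower, against 91 and 158 in the values of the authors, 58 and 149 in Cy3 alone, and 1723 and 1180 with the replicate block, where higher calls outnumbered lower ones. The 8 called pathway genes kept their sign under all 19 alternatives, with 0 passing without the limit on background, 1 in the authors' table and 2 in Cy3 alone. Fgf7 stayed between 1.35 and 1.74 higher with MRK-003 beside Jagged1 cells over 19 alternatives and passed in 14, and Fgfr2 A_52_P363110 stayed between 1.18 and 1.33 and passed in 9. Among those that ended the Fgfr2 call, no limit on background gave an adjusted p of 0.171, the same with the block 0.0669, the values of the authors 0.0654 and Cy3 alone 0.143. The block changed no other call of a member than those printed with it. Fgf2 and Fgf10 were limited by signal near background.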
